A study of Homo sapiens with 9 samples.

Results

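The comparison described here is that of A549 cells transfected with SiREV1#2 against A549 cells transfected with Scramble. A549 is an established human lung adenocarcinoma line, and both groups are that 1 line, without any genetic change, 48 h after transfection with the siRNA. SiREV1#2 is a small interfering RNA against REV1, and Scramble is a control siRNA. Each group has 3 libraries of sequenced RNA, so the comparison holds 6 of the 9 libraries of the series. The other 3 libraries come from A549 cells given SiREV1#1, a second siRNA against REV1 with another sequence, and they enter the same fit, where they add to the estimate of the spread and to the mean level by which genes were filtered. With the 6 libraries of Scramble and SiREV1#2 alone, 2626 genes passed in place of the 1251 reported below. The members were chosen by their sample labels. The measurement was FPKM, fragments scaled by transcript length and by library size, as the authors deposited it for 18143 genes.

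REV1 is a DNA polymerase of translesion synthesis, the process that copies past damaged bases, and it also serves as a scaffold for the other polymerases of that process. A small interfering RNA is loaded as a single guide strand into an Argonaute protein, which cuts a transcript that pairs with the guide over its full length. Bases 2 to 8 of a guide can also pair alone with other transcripts, as they do for a microRNA, and such transcripts are often reduced as well. A gene that moves after 1 siRNA may therefore follow the loss of its target or the guide itself, and the comparison of 2 siRNAs against 1 gene is the usual way to tell these apart.

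The sense strand of SiREV1#2 reads as bases 579 to 597 of the transcript REV1-201 on the minus strand of chromosome 2. These 19 bases are coding. The first of them is the last base of exon 4, at 99449336, and the remaining 18 are in exon 5, at chr2:99442452-99442469, of 23 exons. Positions and sequences here are those of GENCODE release 29 on GRCh38, and the submitters' processing notes name the same build, hg38. The 7 bases in capitals, GGACGAC, pair with guide bases 2 to 8. This word is the sequence feature on which the largest falls of this comparison are described, so the same 19-base window is shown for REV1 and for sites in 10 genes that fell, with the word in capitals and its place and exon named after them.
REV1: gcatcaaagctGGACGACt
METTL26: ccggaccttgtGGACGACa
STUB1: gagggtgatgaGGACGACa
NOC2L: agctctgaagaGGACGACa
PACSIN2: gtcagtgagaaGGACGACa
ARHGDIA: gactgacggacGGACGACg
TRAP1: gcttgcaggcaGGACGACt
CDC34: cacccgccggtGGACGACc
MYBL2: ctcatcatcgaGGACGACa
CASP9: gttgagaccctGGACGACa
RPS28: gtggaattcatGGACGACa

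The site of METTL26 lies in the 3′ UTR, in exon 5 at chr16:634506-634524 on the minus strand. That of ARHGDIA is also in the 3′ UTR, in exon 6 at chr17:81868833-81868851 on the minus strand, and a second word of ARHGDIA lies in coding exon 2 at chr17:81869795-81869813. The other sites shown are coding. They lie in STUB1 exon 4 (chr16:681821-681839), NOC2L exon 17 (chr1:945539-945557), PACSIN2 exon 9 (chr22:42876901-42876919), TRAP1 exon 2 (chr16:3690901-3690919), CDC34 exon 3 (chr19:536270-536288), MYBL2 exon 11 (chr20:43711551-43711569), CASP9 exon 8 (chr1:15493942-15493960) and RPS28 exon 3 (chr19:8321959-8321977). A second coding word, not shown, lies in STUB1 exon 3 (chr16:681464-681482), NOC2L exon 19 (chr1:944696-944714) and PACSIN2 exon 9 (chr22:42876931-42876949). Over the whole 19-base window TRAP1 shared 14 bases with REV1, the highest number among the sites of the other genes shown, and MYBL2 shared 8.

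Replicate 1 stood apart from replicates 2 and 3 in both groups. It differed more than 2-fold from the mean of the other two at 1903 genes in Scramble and 2628 in SiREV1#2, while replicates 2 and 3 differed more than 2-fold from each other at 8 and 1 genes. Replicates 2 and 3 still differed by more than counting alone gives. The median squared difference over the counting variance was 2.28 in Scramble and 0.996 in SiREV1#2, where counting alone gives 0.455. This does not show whether they came from separate cultures or from repeats of the same RNA. Total counts were between 18121913 and 20166451 in the 5 libraries of these groups with counts of their own. Of 10 genes usual for A549, 9 had a mean FPKM over 1, and CDKN2A, which A549 lacks, was at 0.24 to 0.73. Of fibroblast markers 0 of 7 and of endothelial markers 0 of 4 were over 1, with summed FPKM of 0.54 to 1.04 and 0.08 to 0.13, and the defining markers COL1A2 and CDH5 were at 0 in all 6 libraries. Of 6 alveolar type II markers only ABCA3 was over 1, with a summed level of 4.61 to 7.15 in Scramble and 3.8 to 5.18 in SiREV1#2. Of 5 blood markers found, CD68, ITGAM and CD14 were over 1, with a summed level of 20.8 to 46.1 in Scramble and 29.1 to 55.0 in SiREV1#2, mostly of the lysosomal gene CD68, and HBB was at 0 in all 6.

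REV1 itself stood at 7.23, 7.9 and 8.44 FPKM in the Scramble libraries and at 3.62, 3.36 and 3.18 in the SiREV1#2 libraries. The groups did not overlap, and REV1 fell by 1.01 on the log2 scale (SE 0.11, adjusted p = 0.0023, limma with the replicate number as a block). An exact two-sided permutation test of the 3 against 3 values gave p = 0.1, the smallest value this design allows. The REV1 level after SiREV1#1 was 2.6 to 3.36, and the 2 siRNAs differed by 0.15 in log2 at this gene (adjusted p = 0.32).

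Of 11429 genes tested, 1251 (10.9%) passed an adjusted p under 0.05. There were 835 genes lower (7.31% of those tested) and 416 higher (3.64%), with a median log2 fold change of −0.69 and 0.57, while the median of all genes tested was 0.00078. More than 2-fold, 177 genes were lower and 33 higher. Without replicate 1 the genes past an adjusted p under 0.05 were 2960 lower and 3126 higher, the opposite order. Fold changes are on the scale of log2(FPKM + 1), which understates the change of genes with a low level. All 1251 genes moved in 1 direction in each of the 3 same-numbered pairs. The fit was blocked on these pairs, so this is not separate support. Of the 1251 genes, 710 (6.21% of the genes tested) had no overlap between the 3 Scramble and the 3 SiREV1#2 values. Whatever the p, 1844 of the genes tested (16.1%) had no overlap. Without the replicate block 53 genes passed, 48 of them lower, and edgeR's quasi-likelihood test on the counts called 271 with the block.

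**Figure D1:**
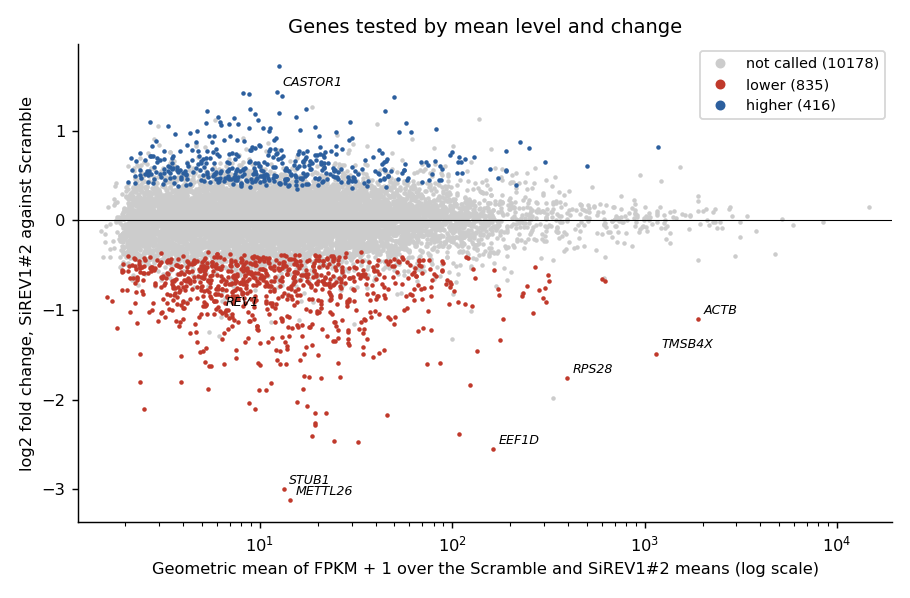
Each point is 1 of 11429 genes tested, with the geometric mean of FPKM + 1 over the group means on a log horizontal axis and the log2 fold change of SiREV1#2 against Scramble on the vertical axis. Red points are the 835 genes called lower and blue points the 416 called higher, and the red points reach −3.12 while the blue points end at 1.73.

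Of the 12 genes that fell most without overlap between groups, 11 are described here. STUB1, the ubiquitin ligase CHIP that acts with chaperones, was at 36.4, 39.2 and 33.0 FPKM in Scramble. It was at 5.4, 2.77 and 3.17 after SiREV1#2. All 3 SiREV1#2 values were far under every Scramble value, and STUB1 fell by 3.00 on the log2 scale (SE 0.22, adjusted p = 0.00068).

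METTL26, a methyltransferase-like gene, had the largest fall of all. Its FPKM was 46.8, 32.6 and 26.1 in Scramble and 11.7, 1.37 and 1.19 after SiREV1#2, so that replicate 1 stayed well above the other SiREV1#2 libraries. It fell by 3.12 on the log2 scale (SE 0.35, adjusted p = 0.0026). The ratio within replicate 1 was −1.91 in log2, against −3.82 and −3.63 in the other pairs.

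CDC34 and UBE2R2 encode the closely related ubiquitin-conjugating enzymes that work with SCF ligases. CDC34 read 41.2, 40.6 and 37.3 FPKM in Scramble and 8.72, 8.11 and 7.63 after SiREV1#2, nearly level within each group, and fell by 2.15 (SE 0.15, adjusted p = 0.00054). UBE2R2 read 33.7, 46.2 and 45.4 in Scramble and 9.86, 7.03 and 6.54 after SiREV1#2, and fell by 2.28 (SE 0.19, adjusted p = 0.00088). Both genes showed a gap between the groups in every pair. CDC34 holds the word in its coding sequence, and the transcripts searched for UBE2R2 do not hold it.

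ARHGDIA, the inhibitor that keeps small GTPases in the cytosol, was among the more abundant of these genes. It read 208, 274 and 257 FPKM in Scramble and 37.4, 50.3 and 52.7 after SiREV1#2, and the 3 pairs lay close together at −2.45, −2.42 and −2.27. It fell by 2.38 (SE 0.12, adjusted p = 0.00037). ARHGDIA holds the word in both its coding sequence and its 3′ UTR. MYBL2, the B-MYB transcription factor of genes for mitosis, read 59.9, 38.8 and 38.9 FPKM in Scramble and 9.66, 9.23 and 9.19 after SiREV1#2. Its SiREV1#2 values were almost level while the Scramble values were not, and it fell by 2.15 (SE 0.13, adjusted p = 0.00044).

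Other genes fell less in replicate 1 than in the other pairs. EEF1D, a subunit of the exchange factor for translation elongation, read 323, 349 and 320 FPKM in Scramble and 176, 28.5 and 33.8 after SiREV1#2. It fell by 2.55 (SE 0.48, adjusted p = 0.016), and its replicate 1 lay apart from the other SiREV1#2 libraries, with a log2 ratio of −0.87 against −3.57 and −3.21. PACSIN2, which curves membranes in endocytosis, showed the same division, at 32.7, 40.7 and 40.8 in Scramble and 16.5, 3.93 and 3.6 after SiREV1#2. It fell by 2.40 (SE 0.43, adjusted p = 0.014). TUBB3, a beta-tubulin best known from neurons, went from 105, 48.7 and 38.8 to 35.4, 4.75 and 4.88, a fall of 2.47 (SE 0.31, adjusted p = 0.0037).

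NOC2L and TRAP1 also fell. NOC2L, a nucleolar inhibitor of histone acetylation, was at 49.8 to 60.5 FPKM in Scramble and at 14.7, 7.81 and 6.44 after SiREV1#2, and it fell by 2.46 (SE 0.27, adjusted p = 0.0023). TRAP1, the HSP90 protein of mitochondria, went from 112, 82.2 and 76.8 to 40.02, 12.5 and 13.5 and fell by 2.17 (SE 0.25, adjusted p = 0.0027). Each of these 11 genes was also lower after SiREV1#2 than after SiREV1#1, and the adjusted p of that difference in the limma fit was 0.016 at most. Of all genes tested 36.1% differed between the siRNAs, and 76.8% of the genes called lower passed as lower than after SiREV1#1. That contrast uses the SiREV1#2 libraries by which the 11 genes were chosen, so it is not separate support. When each library and each replicate number was left out in turn, in 9 fits, EEF1D and PACSIN2 passed in 3 and the others of the 11 in all 9.

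**Figure D2:**
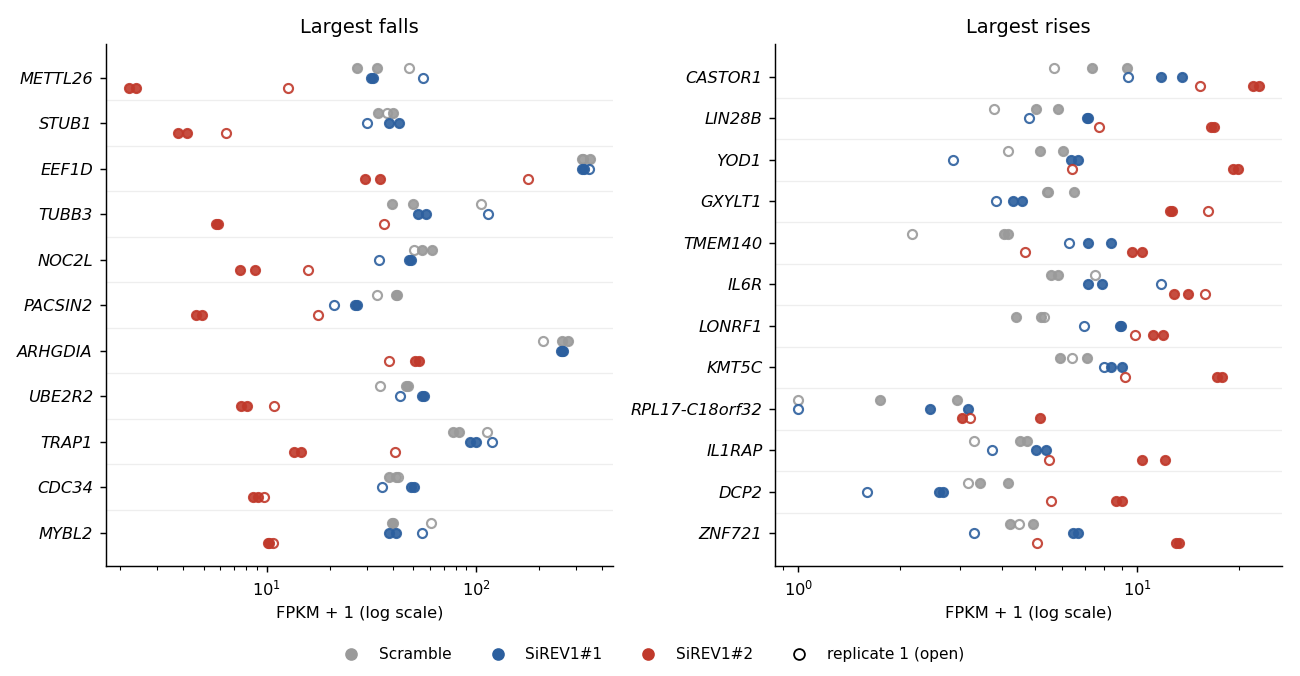
FPKM + 1 on a log axis for 11 of the 12 largest falls (left) and the 12 largest rises (right) without overlap between Scramble and SiREV1#2, with 1 point per library and replicate 1 as open points. Scramble points are grey, SiREV1#1 points blue and SiREV1#2 points red. On the left every red point lies below every grey point, and for EEF1D and PACSIN2 the open red point lies between the groups.

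The 12 largest rises were smaller and at lower levels. CASTOR1, the arginine sensor of the mTORC1 pathway, rose from 4.68, 8.33 and 6.37 FPKM to 14.3, 20.99 and 21.9, by 1.43 in log2 (SE 0.11, adjusted p = 0.00079). LIN28B, an RNA-binding protein that blocks the maturation of let-7 microRNAs, rose from 2.77, 4.03 and 4.86 to 6.73, 15.8 and 15.6, by 1.43 (SE 0.15, adjusted p = 0.0019). In both genes the lowest SiREV1#2 value was in replicate 1 and was above every Scramble value. CASTOR1, LIN28B, GXYLT1 and IL6R passed in all 9 fits that left libraries out, and the other rises described next passed in 3 to 8 of them.

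GXYLT1, a xylosyltransferase that extends sugars on Notch, rose by 1.24 (SE 0.14, adjusted p = 0.0027), from 4.47, 4.43 and 5.53 FPKM to 15.1, 11.7 and 11.5. Its highest value was in replicate 1, unlike the genes above. DCP2, the enzyme that removes the cap of messenger RNA, went from 2.18, 2.43 and 3.15 to 4.58, 8.02 and 7.68 and rose by 1.09 (SE 0.13, adjusted p = 0.0036). GXYLT1 and DCP2 had the largest differences between the siRNAs among the rises, at 1.70 and 1.76 in log2, and after SiREV1#1 they were at 2.84 to 3.57 and 0.6 to 1.68.

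Receptors of cytokines were a further pair. IL6R, the interleukin-6 receptor, rose from 6.51, 4.57 and 4.83 FPKM to 14.9, 13.2 and 11.9, by 1.19 (SE 0.12, adjusted p = 0.0017). IL1RAP, the co-receptor for interleukin-1, rose from 2.31, 3.52 and 3.73 to 4.51, 11.1 and 9.35, by 1.09 (SE 0.15, adjusted p = 0.0048). YOD1, a deubiquitinase, rose by 1.41 (SE 0.22, adjusted p = 0.0088), with 5.42 FPKM in SiREV1#2 replicate 1 and 18.9 and 18.1 in the others. ZNF721, a zinc finger gene, rose by 1.08 (SE 0.25, adjusted p = 0.032) and had a log2 ratio of 0.18 in replicate 1 against 1.65 and 1.40.

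TMEM140, a membrane protein gene, rose by 1.23 (adjusted p = 0.0063) and did not differ detectably from SiREV1#1, where its log2 fold change was 1.13. LONRF1, a RING and LON domain gene, rose by 1.14, and KMT5C, a histone H4 methyltransferase, rose by 1.13. RPL17-C18orf32 rose by 1.1 from 0.0, 0.74 and 1.95 FPKM to 2.22, 2.04 and 4.18. It is a readthrough of neighbouring genes, so the counting may split its reads, and its value is uncertain. The largest rise of any gene called was that of OLFML3, an olfactomedin-like secreted protein, at 1.73 (adjusted p = 0.00079). OLFML3 is outside the rule for named genes and was chosen after its values were seen: Scramble replicate 1, at 13.6 FPKM, overlapped with 10.2 and 11.7 in SiREV1#2 replicates 2 and 3.

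A word for guide bases 2 to 8 was common among the genes that fell and rare among those that rose. Of the genes tested, 11316 (99.0%) matched a coding GENCODE transcript, and without REV1 1141 of 11315 (10.1%) held GGACGAC in the coding sequence or 3′ UTR of the transcript with the longest 3′ UTR, read on the sense strand only. Of these 1141 genes, 351 (30.8%) were lower and 9 (0.789%) higher, with a median log2 fold change of −0.29. Of the 10174 genes without the word, 477 (4.69%) were lower and 406 (3.99%) higher, with a median of 0.020. From the other side, the word was in 42.4% of the 828 genes called lower, in 67.8% of the 174 called more than 2-fold lower and in 2.17% of the 415 called higher. After SiREV1#1, whose libraries were set against the same Scramble libraries, the genes with the word had a median of −0.040 and those without it −0.071.

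The place of the word in the transcript made little difference to the share of genes that were lower. It was 30.1% of 1000 genes with the word in the coding sequence only and 30.1% of 123 genes with it in the 3′ UTR only. Of the 18 genes with the word in both places 72.2% were lower, with a median of −0.82. Genes with 2 words were lower in 55.9% of 118 cases, genes with 1 word in 27.7% of 1004, and genes with 3 or more in 36.8% of 19. A longer run of bases pairing with the guide past base 8 gave no steady order, with 29.9% lower for a run of 7 bases, 30.9% for 8, 39.5% for 9, 24.1% for 10 and 25.0% of 16 genes for 11 or more.

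Genes with the word were richer in G and C (median 55.6% against 47.5%) and had longer coding sequences. With all genes cut into 3 equal classes by GC content, the share lower was 17.9% with the word against 2.4% without it in the lowest class, 28.6% against 4.61% in the middle and 35.1% against 7.41% in the highest. By coding length it was 38.7% against 4.72% in the shortest class and 26.3% against 4.68% in the longest. The median change of the genes with the word was −0.27 in replicate 1 and −0.33 and −0.31 in the other pairs. With the APPRIS principal transcript in place of the one with the longest 3′ UTR, a choice made after seeing the data, 1201 genes held the word and 30.9% of them were lower, against 4.52% of the rest. A match of 7 bases is a description of the sequence and does not show pairing in the cell.

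**Figure D3:**
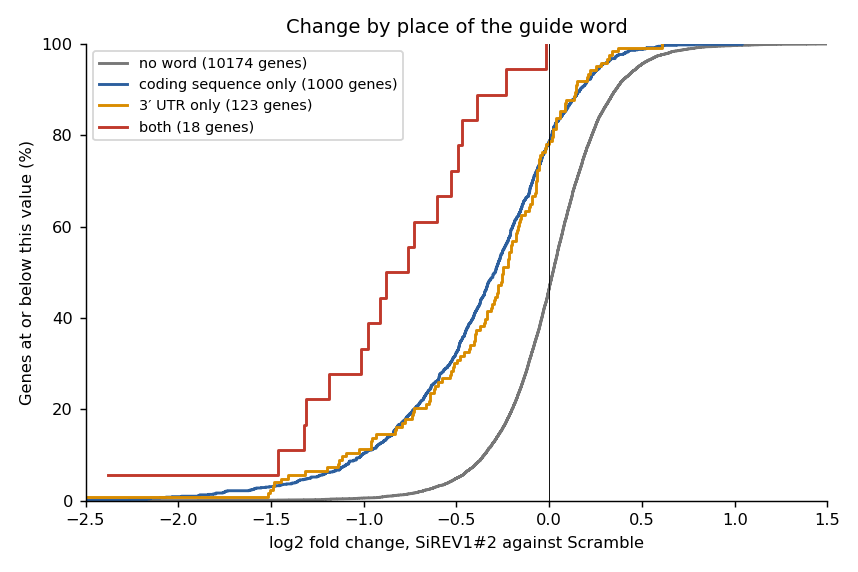
Cumulative share of genes (vertical axis, percent) at or below each log2 fold change of SiREV1#2 against Scramble (horizontal axis), by the place of the word for guide bases 2 to 8. The curves for 1000 genes with a coding word and 123 with a 3′ UTR word lie together to the left of the curve of 10174 genes without it, and that of the 18 genes with both lies farthest left. The axis is drawn from −2.5 to 1.5.

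Among these 11 falls, METTL26, STUB1, NOC2L, ARHGDIA, TRAP1, CDC34 and MYBL2 held the word in the transcript with the longest 3′ UTR. EEF1D and PACSIN2 held it 2 times each in the coding sequence of the principal transcript, and TUBB3 and UBE2R2 held it in neither. None of the 12 largest rises held it. Beyond METTL26 and ARHGDIA, genes with a 3′ UTR word that fell included ABHD4, CCDC137 and TMSB4X. TMSB4X, thymosin beta 4, which binds actin monomers, was at 2550, 1646 and 1487 FPKM in Scramble and at 976, 521 and 558 after SiREV1#2. It fell by 1.48 (SE 0.25, adjusted p = 0.011), and its groups did not overlap.

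ABHD4, a lipid hydrolase, fell by 1.52 (SE 0.24, adjusted p = 0.008), from 40.6, 81.4 and 75.8 FPKM to 25.4, 20.5 and 18.8. CCDC137, a coiled-coil gene, fell by 1.49 (SE 0.11, adjusted p = 0.00061), from 19.6, 32.3 and 31.3 to 7.23, 10.1 and 10.0.

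The pathway lists below were read by the number of members called in each direction and by their median, against 3.64% higher and 7.31% lower over all genes. Without the replicate block, 0 genes were lower in the DNA replication and p53 target lists and 1 in the mitosis list. In the NF-kB list 0 were then higher. With the block, edgeR called 4 replication, 1 p53 target and 2 mitosis genes lower and 1 NF-kB gene higher. In the interferon and matrix lists 0 genes were higher in either of these fits, and in the histone list 0 were lower. Of 53 tested genes of DNA replication and G1/S, 14 were lower (26.4%) and 2 higher, with a median of −0.34. UHRF1, which guides maintenance DNA methylation, was at 10.0, 4.96 and 4.86 FPKM in Scramble and 3.04, 1.48 and 1.3 after SiREV1#2, and fell by 1.35 (SE 0.11, adjusted p = 0.00079). UHRF1 holds the word in its coding sequence, and after SiREV1#1 it also fell, by 0.84 (adjusted p = 0.0018, limma). CHAF1A, a subunit of the chromatin assembly factor, went from 11.4, 7.87 and 7.75 to 4.34, 2.74 and 2.53 and fell by 1.26 (SE 0.10, adjusted p = 0.0008). In both genes every SiREV1#2 value was under every Scramble value.

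Other lower members of that list included CHAF1B and ASF1B, which deliver histones, the helicase subunits MCM2, GINS2 and GINS3, the transcription factors E2F1, E2F2 and E2F7, the cyclin CCNE1 and the nucleotide enzymes TYMS and TK1. The 2 that rose act in opposite ways. CDC25A, a phosphatase that activates cyclin-dependent kinases, rose by 0.64 (adjusted p = 0.014), with 2.48 to 3.64 FPKM in Scramble and 4.28 to 6.32 after SiREV1#2. CDKN1B, the inhibitor p27, rose by 0.47 (adjusted p = 0.020), and its replicate 1 overlapped with Scramble. Of the 53 genes 9 held the word, and 6 of the 14 lower ones did. In replicates 2 and 3 alone, where 25.9% of all genes were lower and 27.4% higher, 36 of the 53 were lower and 5 higher.

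Of 40 genes of mitosis and G2/M, 8 were lower (20.0%) and 0 higher, with a median of −0.32, and 24 were lower in replicates 2 and 3 alone. CDC20, the activator of the anaphase-promoting complex, was at 65.5, 34.4 and 32.4 FPKM in Scramble and 27.1, 7.49 and 7.69 after SiREV1#2. It fell by 1.75 (SE 0.22, adjusted p = 0.0039), and it was the 1 gene of this list with the word in the transcript first searched. CDCA3, a mitotic entry factor, was nearly level within each group, at 14.3 to 15.6 and 6.66 to 6.9 FPKM, and fell by 1.04 (SE 0.10, adjusted p = 0.0012). Its principal transcript holds the word. FOXM1, KIF2C, BIRC5, AURKB, TPX2 and CDCA2 were the others lower. In RNA from a whole culture, fewer dividing cells and less RNA per cell cannot be told apart.

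Of 30 clustered histone genes with enough signal, 6 were lower and 0 higher, with a median of −0.38. HIST2H4A and HIST2H4B have the same values in every library, 2.82, 21.3 and 17.7 FPKM in Scramble and 0.98, 8.0 and 6.75 after SiREV1#2, and are near-identical copies, so they are 1 measurement (log2 fold change −1.18, adjusted p = 0.036). Both are nevertheless counted in the 6 and in the 30. Of 36 genes of recombination, the Fanconi pathway and checkpoints, 3 were lower, 0 higher and the median was −0.14. EXO1, a 5′ exonuclease of resection, fell by 0.75 (adjusted p = 0.030) with 8.14 FPKM in SiREV1#2 replicate 1 and 3.68 and 3.31 in the others, and Scramble at 8.07 to 9.41. XRCC3, a recombination gene, fell by 0.66 (adjusted p = 0.017) without overlap, and BLM, a helicase, was also lower.

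The p53 targets had the lowest median of all lists, −0.41. Of 26 tested, 5 were lower and 1 higher, and 19 were lower in replicates 2 and 3 alone. FDXR, the mitochondrial ferredoxin reductase, went from 34.3, 65.2 and 55.7 FPKM to 20.4, 23.3 and 24.3, a fall of 1.11 (SE 0.16, adjusted p = 0.0066). GADD45A, a growth arrest gene, was far lower in replicate 1 in both groups, at 10.95 against 257 and 252 in Scramble and at 8.02 against 107 and 114 after SiREV1#2, and fell by 0.93 (SE 0.19, adjusted p = 0.020). GADD45A holds the word in its coding sequence. FAS, DDB2 and TIGAR were also lower, and CCNG1, cyclin G1, rose by 0.45 (adjusted p = 0.026).

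Of 24 genes of translesion synthesis and PCNA ubiquitination, the processes in which REV1 acts, 2 were lower (8.33%) and 1 higher (4.17%), shares close to those over all genes, with a median of 0.045. POLH, polymerase eta, fell by 0.65 (SE 0.10, adjusted p = 0.0069), from 5.64, 7.56 and 8.03 FPKM to 3.09, 4.95 and 4.48. RAD18, the ligase that ubiquitinates PCNA, fell by 0.42 (adjusted p = 0.048) from 5.56, 11.9 and 13.6 to 3.38, 10.3 and 9.49, with overlapping groups. RPA2, of the single-strand binding protein, rose by 0.41 (adjusted p = 0.049). RAD18 and RPA2 each passed in 1 of the 9 fits that left libraries out, and POLH passed in 5.

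SERTAD2, a transcriptional coregulator with a SERTA domain that the study followed up, stood at 8.9, 25.4 and 29.2 FPKM in Scramble. After SiREV1#2 it stood at 2.99, 10.8 and 10.6. Each pair fell by a similar size, with log2 ratios of −1.31, −1.16 and −1.38, but the groups overlapped because replicate 1 was low in both. It fell by 1.28 (SE 0.12, adjusted p = 0.0011) in the fit with the block, while without the block the adjusted p was 0.61. The exact permutation test, which ignores the pairs, gave p = 0.3. The 2 siRNAs did not differ detectably at SERTAD2 (−0.14 in log2, adjusted p = 0.39). Its coding sequence holds the word at chr2:64636454-64636472. Of the 4 SERTA domain genes tested, SERTAD1 rose by 0.50 (adjusted p = 0.026) and SERTAD3 by 0.43 (adjusted p = 0.038), in opposite direction to SERTAD2.

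The lists with the highest medians were those of signalling. Of 23 genes of NF-kB, cytokines and chemokines, 3 were higher and 0 lower, and the median was 0.43, with 16 higher in replicates 2 and 3 alone. BIRC3, an inhibitor of apoptosis that NF-kB induces, was at 8.48, 51.1 and 49.7 FPKM in Scramble and at 14.4, 121 and 126 after SiREV1#2. It rose by 1.08 (SE 0.13, adjusted p = 0.0036). NFKB2 went from 16.2, 219 and 218 to 34.5, 338 and 342 and rose by 0.77 (SE 0.12, adjusted p = 0.0077), and SOD2 was the other gene higher. In BIRC3 and NFKB2 alike replicate 1 was far lower than the others in both groups, and the ratio kept its direction.

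Of 25 interferon response genes 5 were higher and 1 lower, with a median of 0.16. IRF1, a transcription factor of that response, rose by 0.66 (SE 0.12, adjusted p = 0.016), from 8.33, 89.9 and 91.8 FPKM to 13.3, 147 and 147. IFIH1, the double-stranded RNA sensor MDA5, rose by 0.79 (SE 0.17, adjusted p = 0.025), from 0.96, 2.78 and 2.94 to 1.29, 6.81 and 7.41. ISG20, IFIT3 and DDX60 were the others higher, and IFI6 fell by 0.47 (adjusted p = 0.038). Of 32 genes of EGFR, RAS and MAPK feedback 3 were higher and 0 lower, with a median of 0.21. DUSP5, a phosphatase of ERK, rose by 1.22 (SE 0.14, adjusted p = 0.0032), from 12.8, 36.1 and 33.1 to 24.1, 88.9 and 96.7, and ERBB2 and NRAS were the others.

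Of 18 Hippo pathway genes and YAP targets 1 was higher, the kinase LATS2 (0.71, adjusted p = 0.010). Of 38 mesenchymal, TGF-beta and matrix genes 4 were higher and 0 lower, with a median of 0.13, among them the basement membrane collagen COL4A1 (0.66, adjusted p = 0.012) and LTBP2 (0.55, adjusted p = 0.021). Of 13 epithelial junction and keratin genes 1 was lower, the desmosomal DSP (−0.42, adjusted p = 0.045).

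In the PI3K, AKT and mTOR list 2 of 27 genes were higher and 3 lower. RICTOR, which defines mTORC2, rose by 0.73 (adjusted p = 0.042), and RPTOR, which defines mTORC1, fell by 0.50 (adjusted p = 0.030) and holds the word 2 times. EIF4EBP2, a repressor of cap-dependent translation, rose by 0.90 (SE 0.12, adjusted p = 0.0043), and the kinase PDPK1 fell by 0.70 (adjusted p = 0.012). Of 27 Wnt and beta-catenin genes 1 was higher, BTRC (0.46, adjusted p = 0.039), and 2 were lower. LRP5, a Wnt co-receptor, holds the word 3 times in its coding sequence and fell by 1.1 (SE 0.13, adjusted p = 0.003), and DVL3, a transducer of the Wnt signal, fell by 0.96 (adjusted p = 0.015). DVL3 and PDPK1 also hold the word in the coding sequence.

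Actin and apoptosis genes that fell mostly held the word. Of 37 genes of the actin cytoskeleton and adhesion 8 were lower (21.6%) and 0 higher, and 5 of the 8 held it. ACTB, cytoplasmic beta-actin, was at 2771, 2855 and 2701 FPKM in Scramble and at 1307, 1287 and 1288 after SiREV1#2. These values were nearly level within groups and replicate 1 did not stand apart, and ACTB fell by 1.1 (SE 0.11, adjusted p = 0.0018). FLNA, the actin crosslinker filamin A, went from 199, 300 and 302 to 92.6, 138 and 141 and fell by 1.1 (SE 0.15, adjusted p = 0.0047). ACTB and FLNA both hold the word in the coding sequence. The others were ACTN4, MYH9, TPM4, PXN, CDC42 and ARPC2.

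Of 28 genes of the BCL2 family and caspases 2 were higher and 2 lower. CASP9, the initiator caspase of the mitochondrial pathway, went from 3.85, 5.93 and 7.21 FPKM to 0.95, 1.45 and 1.51, and fell by 1.51 (SE 0.13, adjusted p = 0.0009). BAK1, a pore-forming BCL2 protein of that pathway, went from 10.7, 22.6 and 20.8 to 6.3, 10.1 and 11.1, and fell by 0.88 (SE 0.12, adjusted p = 0.0044). Both hold the word in the coding sequence. BIRC3, described above, was among the genes higher.

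The RNA interference machinery had 3 of 13 genes higher and 1 lower. DICER1, which cuts precursors of small RNAs, rose by 0.79 (SE 0.12, adjusted p = 0.0069), from 8.04, 6.52 and 8.23 FPKM to 13.2, 14.7 and 13.6. TNRC6A, the Argonaute partner GW182, rose by 0.62 (adjusted p = 0.013), and AGO4 was also higher. The coding sequence of TNRC6A holds the word, and after SiREV1#1 the gene rose by 0.57 (adjusted p = 0.0098, limma). AGO2, the Argonaute that cuts its targets, fell by 0.67 (SE 0.10, adjusted p = 0.0074), from 5.29, 5.57 and 6.44 to 2.82, 3.55 and 3.43. AGO2 also holds the word in its coding sequence, and after SiREV1#1 it fell by 0.57 (adjusted p = 0.0077, limma).

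Of 32 genes of the unfolded protein and integrated stress response 2 were higher, DNAJB9 (0.75, adjusted p = 0.0041) and ATF3 (0.57, adjusted p = 0.023). Of 16 heat shock and chaperone genes 2 were lower, the transcription factor HSF1 (−0.87, adjusted p = 0.0037) and HSP90AA1 (−0.83, adjusted p = 0.019). Of 24 NRF2 targets SRXN1 rose by 0.66 (adjusted p = 0.047) and UGDH fell by 0.55 (adjusted p = 0.036).

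Sterol and fatty acid synthesis had 4 of 31 genes lower and 0 higher, among them MVD of the mevalonate pathway, which holds the word (−1.16, adjusted p = 0.031), and the desaturase SCD (−0.84, adjusted p = 0.048). Glycolysis and hypoxia had 2 of 31 higher and 3 lower. ADM, a peptide hormone induced by hypoxia, rose by 0.81 (SE 0.13, adjusted p = 0.0093) and PFKFB4 by 0.54 (adjusted p = 0.029). EGLN1, the oxygen sensor that marks HIF1A for degradation, holds the word 2 times and fell by 0.87 (adjusted p = 0.027), and the phosphofructokinase PFKM fell by 0.52 (adjusted p = 0.046). Of 43 lysosome and autophagy genes 2 were higher, GABARAPL1 (0.57, adjusted p = 0.010) and the kinase ULK1 (0.48, adjusted p = 0.017), and 1 lower, their transcription factor TFEB (−0.97, adjusted p = 0.0064). PFKM and TFEB also hold the word in the coding sequence. After SiREV1#1 PFKM fell by 0.79 (adjusted p = 0.0065, limma), and the 2 siRNAs did not differ detectably there (adjusted p = 0.16). Its call after SiREV1#2 passed in 1 of the 9 fits that left libraries out.

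Of 83 cytosolic ribosomal protein genes 2 were lower (2.41%), and the median was 0.022. RPS28 went from 723, 770 and 663 FPKM to 272, 186 and 186 and fell by 1.76 (SE 0.15, adjusted p = 0.00088). RPS25 fell by 0.67 (SE 0.13, adjusted p = 0.016), from 750, 861 and 746 to 441, 502 and 537. Both hold the word in the coding sequence, as did 6 of the 83 genes in all. Of 78 mitochondrial ribosomal protein genes 4 were lower (5.13%), led by MRPS6 (−1.61, SE 0.20, adjusted p = 0.0039) and MRPL35 (−0.80, adjusted p = 0.0078), neither of which holds the word.

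Of 37 proteasome subunits 1 was lower, PSMD11 (−1.24, SE 0.29, adjusted p = 0.032), with the word, and its SiREV1#2 values of 34.94, 11.06 and 11.01 FPKM set replicate 1 apart. Of 78 subunits of oxidative phosphorylation 0 were called by limma, and of 18 iron handling genes also 0, with medians of 0.074 and 0.12, while in replicates 2 and 3 alone 13 and 7 were higher and 5 and 4 lower. Of 41 splicing factors of the hnRNP, SR and SF3 groups 3 were lower, led by HNRNPDL, which has the word in its 3′ UTR (−1.41, SE 0.12, adjusted p = 0.00088), and SRSF8 (−0.46, adjusted p = 0.045). Of 45 nuclear pore and importin genes KPNA5 alone was called (0.78, adjusted p = 0.013), of 36 genes of COPI, COPII and Golgi traffic KDELR3 alone (0.64, adjusted p = 0.0098), and of 20 aminoacyl-tRNA synthetases WARS alone (−0.84, adjusted p = 0.0093). WARS holds the word in its coding sequence.

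Of 58 chromatin modifiers 4 were lower and 1 higher. EHMT1, a histone H3 methyltransferase, fell by 0.99 (SE 0.12, adjusted p = 0.0037), SMARCA2 fell by 0.75 (adjusted p = 0.014), and EZH1 rose by 0.38 (adjusted p = 0.047). Among 319 ZNF zinc finger genes 12 were higher and 12 lower. ZNF267 rose by 1.38 (SE 0.29, adjusted p = 0.024), with 5.76 FPKM in SiREV1#2 replicate 1 and 29.7 and 30.9 in the others. ZNF787, with the word in its principal transcript, fell by 1.49 (SE 0.17, adjusted p = 0.0027), and ZNF598, a ligase that marks collided ribosomes, fell by 1.17 (SE 0.13, adjusted p = 0.0024). ZNF598 and EHMT1 also hold the word in the coding sequence.

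Of 176 solute carriers 6 were higher, led by SLC37A1 (0.72, adjusted p = 0.015) and the sulfate transporter SLC26A2 (0.68, adjusted p = 0.017), and 7 were lower, among them SLC18A2, a monoamine transporter of vesicles (−0.71, adjusted p = 0.039). Of 45 RAB GTPases 3 were higher and 0 lower, with RAB4B (0.78, adjusted p = 0.0058) and RAB9A (0.56, adjusted p = 0.018) first, both of endosomal traffic.

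**Figure D4:**
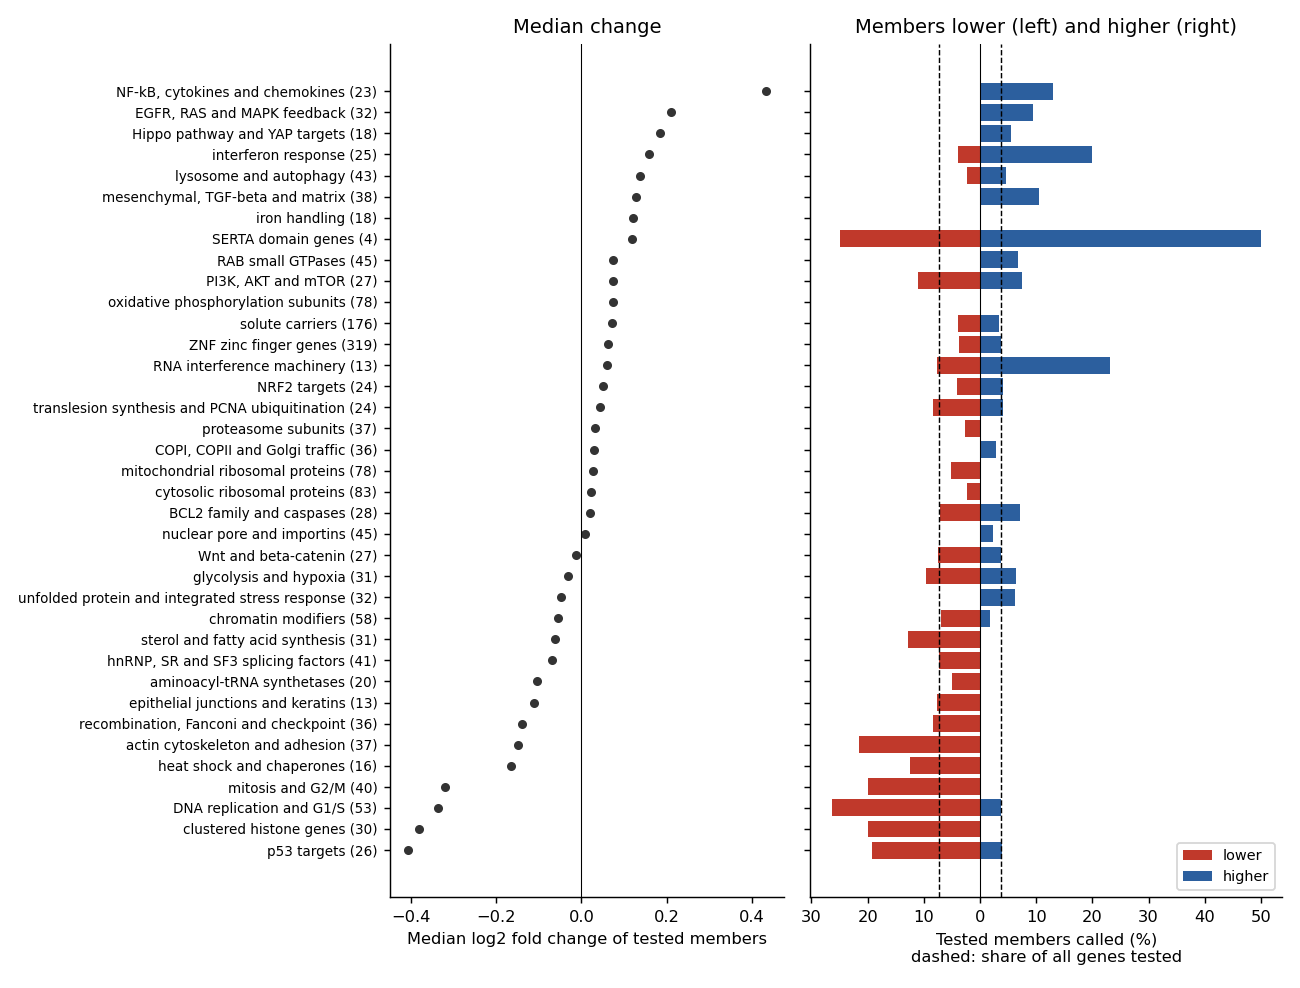
For 37 gene lists, with the number of tested members in brackets, the left panel shows the median log2 fold change and the right panel the percent of members called lower (red, to the left) and higher (blue, to the right). Dashed lines mark the shares over all genes tested, 7.31% lower and 3.64% higher. Medians run from −0.41 for the p53 targets to 0.43 for the NF-kB list, and the SERTA list has only 4 members.

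The size of the change differed between the pairs. Among the 416 genes called higher the median log2 ratio was 0.46 in replicate 1, 0.66 in replicate 2 and 0.62 in replicate 3. Among the 835 genes called lower the median size of the fall was 0.56, 0.78 and 0.73. Replicate 1 gave the smallest of the 3 ratios in 64.2% of the genes called higher and 61.3% of those called lower. Its part in the results was not tested beyond leaving it out. With replicates 2 and 3 alone 6086 genes passed, a number that rests on 2 libraries a group whose spread was small.

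**Figure D5:**
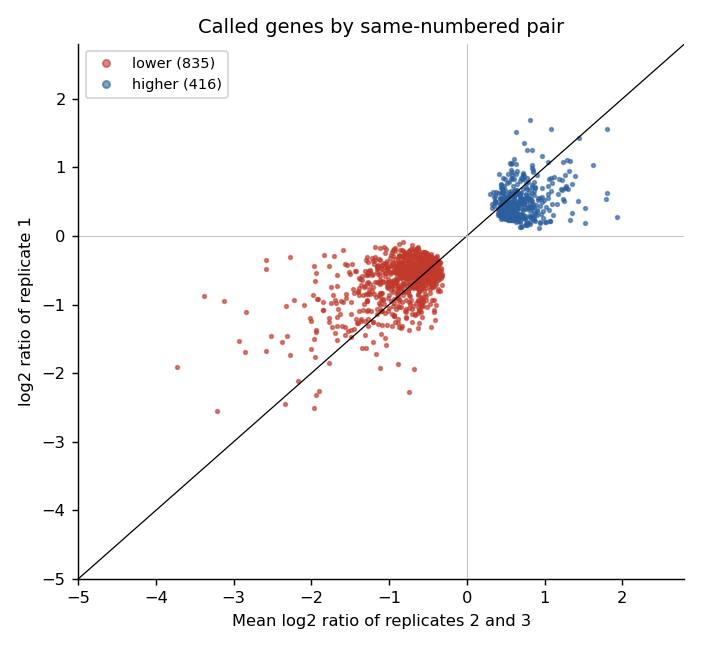
Each point is 1 of the 1251 genes called, with the mean log2 ratio of SiREV1#2 to Scramble in replicates 2 and 3 on the horizontal axis and that in replicate 1 on the vertical axis. The line marks equal values. All points lie at the lower left or the upper right of the zero lines, and many points far from 0 lie on the side of the line where replicate 1 changed less.

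Against SiREV1#1, 4127 genes (36.1%) differed. The 2 siRNAs share the same Scramble libraries, so their values are set side by side. ARHGDIA changed by −2.38 after SiREV1#2 and by 0.06 after SiREV1#1. For ACTB the values were −1.1 and 0.45, for RPS28 −1.76 and 0.57, and for BIRC3 1.08 and −0.33, and each of these differences passed (adjusted p at most 0.00033). The differences did not pass for REV1, SERTAD2, TMEM140, LATS2, TNRC6A or AGO2, with adjusted p values between 0.32 and 0.77, which does not show that the siRNAs act alike there.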

How the data were processed

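RNA from A549 cells was sequenced on the BGISEQ-500 platform. For each library the authors deposited FPKM values and expected counts per gene (estimated counts, without normalization), and their processing notes name StringTie 1.3.3b and the build hg38. The deposited count column for SiREV1#2 replicate 3 repeats that of replicate 2 at 100% of the genes, so FPKM was used for the main test and counts of 8 libraries, rounded, for alternatives.

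Genes with a mean FPKM over 1 in the 9 libraries were tested with limma 3.58.1 under R 4.3.3 (limma-trend, robust, log2(FPKM + 1), replicate number as a block, 4 residual degrees of freedom), with Benjamini-Hochberg adjustment over all 11429 genes and a threshold of 0.05. Deviations from the group means correlated between all 9 same-numbered pairs (0.734 to 0.929), which is where the pairing comes from. Replicates 2 and 3 were as close across numbers as within them, so the block mainly holds replicate 1 apart. The study's methods describe its cell experiments in general as independent repeats, while no label says whether the sequenced replicates were separate cultures. The p-values measure the spread between these libraries, which may be partly or wholly technical. FPKM carries no read depth of its own, and the counts gave the depth.

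Named genes were REV1 and SERTAD2, the 12 largest rises and falls with an adjusted p under 0.05, the same direction in 3 pairs and no overlap, up to 2 genes per direction in each of 37 lists, and the 6 largest falls with a 3′ UTR word. Some genes that these rules name are not reported here. Members, lists and rules were chosen with earlier results of these data known. The word was searched in GENCODE release 29. Alternatives were edgeR 4.0.16, DESeq2 1.42.0, other scalings, filters and pseudocounts, fits without the block, and fits that left libraries out. Each model was first tested on simulated data. Figures and tables were made with Python 3.11.15.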

Additional observations from a re-analysis of the deposited data

Results flagged for a closer look

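Of the 107 genes named, 85 had a response to SiREV1#2 that differed from the response to SiREV1#1, by the contrast between the siRNAs in the same limma fit (adjusted p under 0.05), and 22 did not pass. The value given for each gene is SiREV1#2 minus SiREV1#1 on the scale of log2(FPKM + 1), so that a negative value is lower after SiREV1#2. Over all genes tested, 36.1% passed in this contrast, and 568 passed without the replicate block. Of the genes called lower 76.8% passed as lower than after SiREV1#1, and of those called higher 68.0% passed as higher. Most named genes were chosen by their change after SiREV1#2, and the contrast uses the same SiREV1#2 libraries.

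These differences were chosen by that contrast alone, and their cause was not tested. Among the genes with the largest rises, the difference was 0.79 at CASTOR1, 1.05 at LIN28B, 1.44 at YOD1, 1.70 at GXYLT1, 0.71 at IL6R and 0.41 at LONRF1. It was 0.74 at KMT5C, 0.90 at RPL17-C18orf32, 0.92 at IL1RAP, 1.76 at DCP2 and 0.87 at ZNF721. Among the genes with the largest falls, the difference was −3.25 at METTL26, −2.98 at STUB1, −2.55 at EEF1D, −2.71 at TUBB3, −2.10 at NOC2L and −1.75 at PACSIN2. It was −2.44 at ARHGDIA, −2.55 at UBE2R2, −2.38 at TRAP1, −2.28 at CDC34 and −2.10 at MYBL2. For the other genes with a 3′ UTR word it was −1.62 at ABHD4, −1.28 at CCDC137 and −1.49 at TMSB4X.

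In genes of DNA replication, repair and cell division the difference was 0.65 at RPA2, −0.47 at POLH, 0.34 at RAD18, 0.32 at CDKN1B, −0.51 at UHRF1, −0.86 at CHAF1A, −1.14 at CDC20, −0.49 at CDCA3 and −0.41 at XRCC3. In p53 targets, the SERTA list and apoptosis genes the difference was 0.99 at SERTAD1, 0.46 at CCNG1, −1.04 at FDXR, −1.95 at CASP9 and −1.20 at BAK1. In interferon, NF-kB and stress response genes the difference was 0.74 at IFIH1, 0.92 at IRF1, −0.46 at IFI6, 1.42 at BIRC3, 0.72 at NFKB2, 0.33 at DNAJB9, 0.80 at ATF3, −0.99 at HSF1 and −0.71 at HSP90AA1. In metabolic and hypoxia genes and transporters the difference was −1.49 at MVD, 1.54 at ADM, 1.17 at PFKFB4, −0.87 at EGLN1, 0.41 at SLC37A1, 0.80 at SLC26A2 and 0.70 at SLC18A2.

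In signalling genes and genes of adhesion, matrix and the cytoskeleton the difference was −0.58 at DSP, 0.77 at COL4A1, 0.58 at DUSP5, 0.89 at EIF4EBP2, 1.58 at RICTOR, −0.70 at PDPK1, −0.57 at RPTOR, −1.51 at LRP5, −1.47 at DVL3, −1.55 at ACTB and −0.58 at FLNA. In genes of autophagy and vesicle traffic the difference was 0.76 at GABARAPL1, −1.02 at TFEB, 0.51 at KDELR3, 0.54 at RAB4B and 0.95 at RAB9A. In genes of RNA interference, chromatin and transcription the difference was 0.36 at DICER1, −0.71 at EHMT1, −0.50 at SMARCA2, 0.87 at ZNF267, −1.32 at ZNF787 and −1.26 at ZNF598. In genes of the ribosome, translation, splicing, nuclear transport and the proteasome the difference was −0.62 at WARS, −2.33 at RPS28, −0.92 at RPS25, −1.50 at MRPS6, −0.70 at MRPL35, −1.21 at PSMD11, −1.36 at HNRNPDL and 1.06 at KPNA5. RAD18 and SLC18A2 were lower than Scramble after both siRNAs, and the positive values show that SiREV1#1 had the larger fall. CASTOR1, IL6R, LONRF1, DUSP5, DICER1 and DNAJB9 also passed as higher than Scramble after SiREV1#1. UHRF1, CHAF1A, CDCA3 and FLNA also passed as lower after it. At these genes the siRNAs differed in the size of the change and not in its direction. DCP2, SERTAD1, ADM, PFKFB4, CASP9, ACTB, RPS28, RAB9A and RICTOR passed after SiREV1#1 in the opposite direction.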

How the results depend on the processing

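Of 1251 genes called, the number was within 1.5 times of that with a pseudocount of 0.1, TMM or upper-quartile scaling, FPKM of at least 1 in every library and DESeq2. It was 810 without a filter, 320 at an adjusted p under 0.01, 210 with an absolute log2 fold change above 1, 2626 with the 6 libraries of Scramble and SiREV1#2 alone and, in an alternative added after seeing the data, 2007 with a block of 2 levels that sets replicate 1 against the others. On counts of 8 libraries edgeR called 271 with the block and 0 without it, where 778 genes had an unadjusted p under 0.05. Without the replicate block the fit on FPKM called 53 genes, so most calls rest on the block. The block of 2 levels, which does not pair replicates 2 and 3 by number, called all 1251 genes again in the same direction. Leaving out libraries gave 86 to 6086 genes, the lowest without replicate 2 and the highest without replicate 1, where 51.4% of the genes called were higher, against 33.3% with all libraries. Among single libraries, the number was 191 without Scramble replicate 2, 216 without Scramble replicate 3, 247 without SiREV1#2 replicate 2, 212 without SiREV1#2 replicate 3 and 2057 without SiREV1#2 replicate 1. The cause of these differences was not tested.

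The genes differing between the siRNAs numbered 4127, and 568 without the replicate block, 2503 and 96 by edgeR with and without it, 2080 at an adjusted p under 0.01, 649 with an absolute log2 difference above 1, and 1324 to 7860 when libraries were left out. The log2 fold change of REV1 was −0.92 to −1.11 in those fits, with an adjusted p of 0.059 without replicate 2, and −1.33 by edgeR without the block (adjusted p = 0.15). Over the other 106 genes named, 1361 of 2112 values under the alternatives passed as before, 751 kept their direction without passing, and 0 changed direction. Without the replicate block 92 of these genes no longer passed.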

Other observations

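Some genes of stress and inflammation, chosen after their values were seen, separated replicate 1 from the other replicates within each group. ATF3, a transcription factor of the stress response, was at 3.43 FPKM in Scramble replicate 1 and at 189 and 192 in replicates 2 and 3, and after SiREV1#2 at 5.78 against 286 and 275. NFKB2, GADD45A and IRF1 had the same order in both groups. SRXN1, an NRF2 target, had the opposite order, at 189 against 29.3 and 29.1 in Scramble and at 355 against 42.0 and 43.2 after SiREV1#2. HSP90AA1, a cytosolic chaperone, was also higher in replicate 1, at 477 against 98.8 and 98.5 in Scramble and at 296 against 52.5 and 51.9 after SiREV1#2. For each of these genes the difference between replicates of 1 group was larger than that between the groups.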
